A study of Homo sapiens with 4 samples.

Results

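The genes described here encode the proteasome: its subunits, its activators and the PSM-named chaperones that assemble it. They were taken as the rows of the deposited expression table whose gene symbol reads PSM, a letter from A to G and a number. The pattern found 50 of the 57815 rows. These carry 48 symbols, because PSMA1 and PSMA2 each have a second row for a read-through gene annotated under the same symbol. RNA-Seq was performed on 2 libraries of 3′ WRE-Mut cells (genotype MYC 3' TBE1 knockout) and 2 libraries of control cells (wild type). Both derive from HCT116, a widely used human line from a colorectal carcinoma, and both were grown in the same medium. 3′ WRE-Mut is 1 clone in which CRISPR/Cas9 removed TBE1, a TCF binding element of a Wnt responsive enhancer 3′ of MYC, through a small deletion on each allele, whereas the control cells are the parental population. The 2 libraries of a group are biological replicates, but all the 3′ WRE-Mut RNA comes from the same clone, so effects of the deletion and other differences between the clone and its parent cannot be told apart.

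The proteasome is the large protease that degrades proteins tagged with ubiquitin in the cytoplasm and nucleus. Its 20S core is a stack of rings of alpha and beta subunits with the catalytic sites inside, and its 19S regulatory particle holds a ring of ATPases that unfold substrates plus non-ATPase subunits that bind and remove ubiquitin. The 11S activators and a few other factors can dock on the core in place of the 19S particle, and dedicated chaperones build both of these particles. Transcription of the subunit genes in human cells is known to be driven together by NFE2L1 when proteasome activity is short. MYC, the transcription factor whose enhancer was edited here, binds DNA with MAX at the E-box CACGTG.

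Values were in FPKM, which scales read counts by transcript length and library size, so that levels can be compared between genes. MYC measured 48.0 and 34.2 FPKM in the 3′ WRE-Mut libraries, against 111 and 113 FPKM in the control libraries. The epithelial markers KRT8, KRT18, KRT19 and EPCAM were abundant, the lowest value being 146 FPKM, and CDH1 measured 49.5 and 73.0 FPKM in 3′ WRE-Mut cells and 42.3 and 24.3 FPKM in control cells. CDX2 was low, with 4.64 and 1.35 FPKM in 3′ WRE-Mut cells and 10.6 and 7.25 FPKM in control cells. Of the 6 tested epithelial markers, 5 were lower in both 3′ WRE-Mut libraries, beside 30.6% of all genes tested. KRT18 fell in the limma test over protein-coding genes, which called 4.3% of those genes lower. KRT18 measured 226 and 201 FPKM in 3′ WRE-Mut cells and 697 and 496 FPKM in control cells, with a limma adjusted p of 0.0240. VIL1 and all leukocyte and endothelial markers with a row stayed below 1 FPKM. Of the fibroblast markers, COL1A1 measured 20.9 and 28.5 FPKM in 3′ WRE-Mut cells and 14.3 and 16.9 FPKM in control cells, and the other 3 stayed below 1 FPKM. The part of these markers' differences in the results was not tested. In bulk RNA of a cell line, fewer cells expressing a gene and less of its RNA per cell cannot be told apart. The number of reads per library is unknown. The read counts implied by low FPKM values and the authors' upper bounds of them were seldom whole numbers. The genes with a nonzero FPKM numbered 26851 to 29356 per library.

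Promoter windows of 5 members are shown, so that the motifs counted over all members can be seen in place. PSMG1 and PSMG4 are the members with the lowest fold changes, and PSMB3, PSMD9 and PSME3 are the members whose window holds the E-box. Sequences are from RefSeq on GRCh38.p14 and run 5′ to 3′ from 250 bases before to 50 bases after the gene start. Capitals mark every match, on either strand, to the E-box (CACGTG), the antioxidant response element core that NFE2L1 and NFE2L2 bind (TGACNNNGC), an ETS core (CCGGAAG) and the CCAAT box (CCAAT).
PSMG1 (chr21:39183402-39183701, minus strand): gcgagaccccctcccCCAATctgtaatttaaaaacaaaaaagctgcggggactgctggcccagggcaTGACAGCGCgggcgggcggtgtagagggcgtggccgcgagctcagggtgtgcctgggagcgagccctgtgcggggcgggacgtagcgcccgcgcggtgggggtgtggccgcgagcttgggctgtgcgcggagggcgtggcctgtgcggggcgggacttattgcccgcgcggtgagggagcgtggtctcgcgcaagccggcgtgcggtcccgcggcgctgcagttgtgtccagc
PSMG4 (chr6:3258697-3258996, plus strand): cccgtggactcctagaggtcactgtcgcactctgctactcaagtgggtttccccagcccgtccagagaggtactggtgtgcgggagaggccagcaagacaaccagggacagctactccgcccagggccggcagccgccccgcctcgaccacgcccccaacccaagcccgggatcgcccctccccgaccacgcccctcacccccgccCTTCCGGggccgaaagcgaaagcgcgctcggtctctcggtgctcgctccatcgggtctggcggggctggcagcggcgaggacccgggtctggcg
PSMB3 (chr17:38752491-38752790, plus strand): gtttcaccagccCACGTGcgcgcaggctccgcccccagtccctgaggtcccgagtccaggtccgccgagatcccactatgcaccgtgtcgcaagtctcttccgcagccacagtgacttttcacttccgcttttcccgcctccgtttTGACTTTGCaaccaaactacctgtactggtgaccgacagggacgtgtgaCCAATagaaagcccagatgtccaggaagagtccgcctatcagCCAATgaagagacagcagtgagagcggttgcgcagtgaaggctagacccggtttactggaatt
PSMD9 (chr12:121888540-121888839, plus strand): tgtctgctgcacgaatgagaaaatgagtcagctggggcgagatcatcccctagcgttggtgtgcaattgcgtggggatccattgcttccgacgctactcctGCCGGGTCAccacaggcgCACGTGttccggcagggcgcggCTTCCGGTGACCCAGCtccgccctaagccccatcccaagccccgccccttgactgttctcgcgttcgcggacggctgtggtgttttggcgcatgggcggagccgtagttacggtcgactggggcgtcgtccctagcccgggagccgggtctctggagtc
PSME3 (chr17:42833147-42833446, plus strand): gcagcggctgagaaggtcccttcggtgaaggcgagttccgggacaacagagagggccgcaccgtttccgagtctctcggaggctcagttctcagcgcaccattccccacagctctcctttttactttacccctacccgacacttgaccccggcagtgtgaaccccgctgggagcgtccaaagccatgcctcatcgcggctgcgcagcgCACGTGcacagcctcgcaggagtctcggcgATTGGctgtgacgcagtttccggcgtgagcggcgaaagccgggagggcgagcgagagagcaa

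RefSeq windows were found for 42 of the 48 genes, 51 windows in all. The antioxidant response element core lay in 29.4% of the members' windows, against 13.3% of all 35116 windows outside chromosome 8, and the ETS core in 29.4%, against 10.3%. The E-box lay in 5.88% of the members' windows, against 7.26% of all windows, and the CCAAT box in 39.2%, against 34.6%. A match describes these letters only. The windows shown differ in what they carry: that of PSMG4 holds a single ETS core, that of PSMG1 holds 1 antioxidant response element core and 1 CCAAT box, and that of PSMD9 holds an E-box with 2 antioxidant response element cores, one of which directly follows an ETS core. The 3 genes with an E-box did not share a direction: their log2 fold changes, 3′ WRE-Mut over control, were 0.07 for PSMB3 (-0.07 after quantile normalization), 0.35 for PSMD9 and -0.64 for PSME3.

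The comparison asked which proteasome genes differ in transcript level between 3′ WRE-Mut and control cells. The 14 constitutive subunits of the 20S core all had log2 fold changes below 0.5 in size. The 17 PSM-named subunits of the 19S particle spread in both directions, with a standard deviation of 0.43 beside 0.68 for protein-coding genes. No member passed the test over all genes, and neither did MYC. On the log2(FPKM + 1) scale, the genes farthest from control were the core assembly chaperones PSMG1 and PSMG4, at 0.454 and 0.419 of the control mean. Among the PSM-named subunits, PSMD13 was the highest relative to control and PSMC3 the lowest. Of the 50 rows, 46 averaged 1 FPKM or more across the 4 libraries and were tested. The other 4 were PSMA8, a testis-specific alpha subunit, PSMB11, a beta subunit of the thymus, the immunosubunit PSMB8, and the read-through row of PSMA1.

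The test was limma on log2(FPKM + 1), with Benjamini-Hochberg adjustment over all 14815 genes tested and a threshold of 0.05. Over all genes it called 0.0877% higher and 0.101% lower in 3′ WRE-Mut cells, and it did not call MYC (limma adjusted p 0.149). Of the 46 members it called 0 higher and 0 lower, and 3 higher and 6 lower had an unadjusted limma p under 0.05, where the shares over all genes were 11% and 11.2%. Limited to 11709 protein-coding genes, limma called 4.01% higher and 4.3% lower, and of the members 0 higher and 1 lower, PSMG4. Both 3′ WRE-Mut libraries lay above both control libraries for 19 members (41.3%) and below them for 12 (26.1%), against 28.7% and 30.6% of all genes tested. The libraries of the groups overlapped for the remaining 15.

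The members' log2 fold changes had a median of 0.19, beside -0.03 for all genes tested, and of 0.09 after quantile normalization, beside 0.00 for all genes tested. They were above 0 for 27 and below 0 for 19. Their standard deviation was 0.46, compared to 0.68 for protein-coding genes and 0.91 for all genes tested. Thus 33 of the 46 lay within 0.5 of 0 in either direction, 8 lay below -0.5 and 5 above 0.5, where 22.3% and 19.9% of protein-coding genes did. Only PSMG1, PSMG4 and the read-through row of PSMA2 had a log2 fold change over 1 in size, 6.52% of the members beside 12.6% of protein-coding genes. The median differed between the clone's libraries, 0.05 in replicate 1 and 0.15 in replicate 2, each against the control mean. The replicates within a group differed too: 36 of the 46 members were lower in control replicate 2 than in control replicate 1. The median difference over all 46 was -0.17 on the log2 scale, beside -0.10 over all genes tested.

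**Figure D1:**
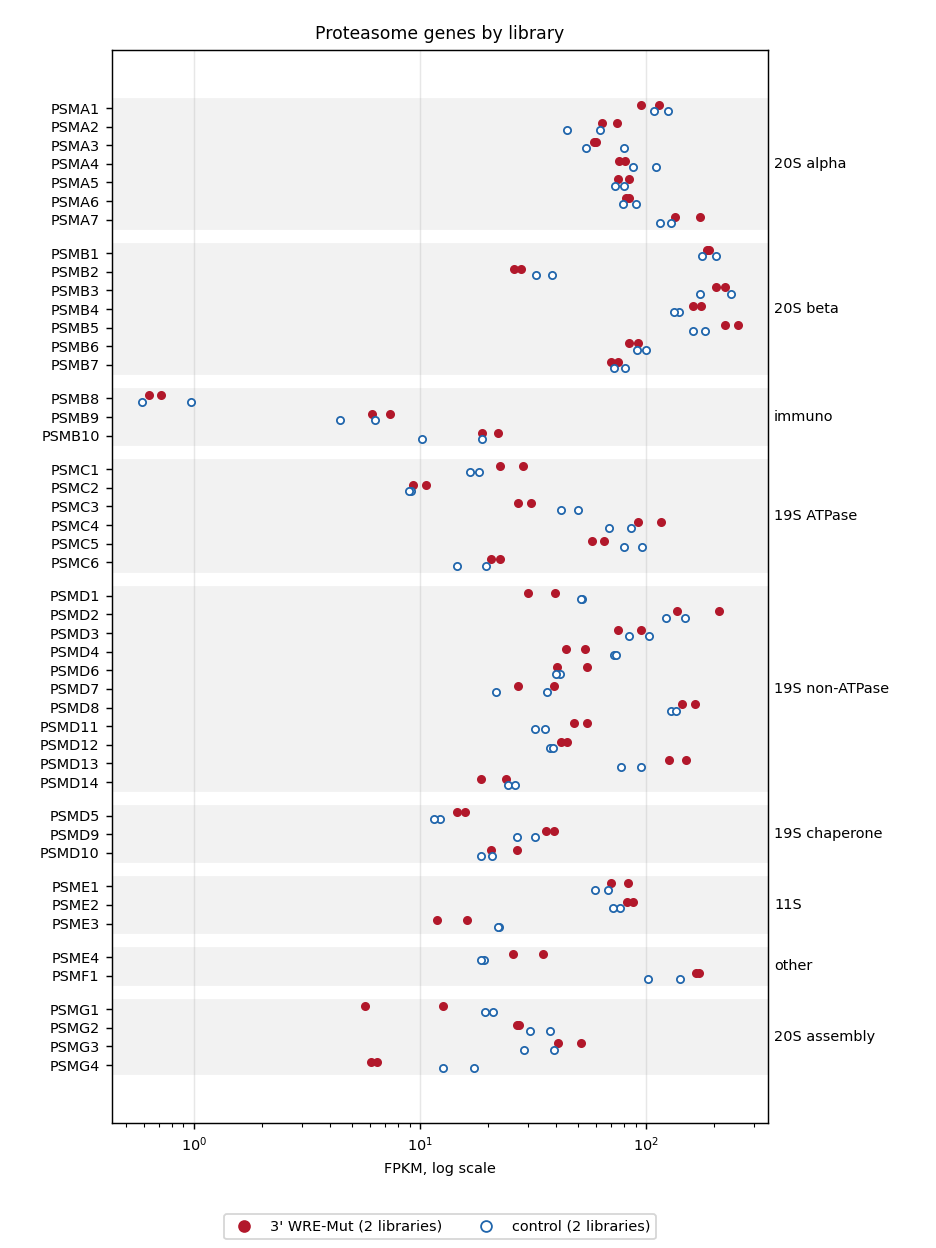
FPKM on a log axis for the 48 proteasome genes but PSMA8 and PSMB11 (both below 0.1 FPKM), by structural group, with filled red circles for the 2 3′ WRE-Mut libraries and open blue circles for the 2 control libraries. The symbols of the groups lie close together for the core subunits, while PSMG1 and PSMG4 stand apart to the left in 3′ WRE-Mut cells.

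Levels kept their order between genes. Over the 46 members, Spearman's rho was 0.984 between the 3′ WRE-Mut libraries, 0.977 between the control libraries and 0.934 to 0.968 between the groups, a description across genes, which are not independent replicates. PSMB3, a structural beta subunit, and PSMB5 had the highest means, and apart from the read-through row the lowest tested members were PSMB9 and the ATPase gene PSMC2. The authors' lower and upper bounds of each FPKM value spanned a median half-width of 66.9% of the value over members, compared to 88.0% over protein-coding genes. These bounds overlapped between the groups for every tested member, as they did for all but 9 higher and 28 lower of the 14815 genes tested. Of the 50 rows, 31 lie at a locus that the table merges with other rows, where reads of neighbouring genes may be hard to separate. The median log2 fold change was 0.21 for the 28 tested members at shared loci and 0.02 for the 18 at a locus of their own, and whether the merging plays a part was not tested.

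The 20S alpha subunits, which form the outer rings and the gate of the core, had 7 tested members. Their log2 fold changes ranged from -0.33 to 0.38 with a median of -0.03. Limma called 0 of them over all genes or over protein-coding genes, and 0 had an unadjusted p under 0.05. PSMA7 was the most abundant, with 134 and 173 FPKM in 3′ WRE-Mut cells and 129 and 115 FPKM in control cells, a log2 fold change of 0.32 ± 0.22 (SE). PSMA2 measured 63.9 and 74.5 FPKM in 3′ WRE-Mut cells and 62.6 and 44.7 FPKM in control cells. For both genes the groups did not overlap, though the nearest libraries of the groups differed by less than the replicates of a group. PSMA4 lay the other way, with 80.7 and 75.7 FPKM in 3′ WRE-Mut cells and 111 and 87.7 FPKM in control cells. The remaining 4 overlapped between the groups. The testis form PSMA8 stayed at or below 0.0561 FPKM in every library.

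The 7 constitutive beta subunits form the inner rings, and PSMB5, PSMB6 and PSMB7 carry the catalytic sites with chymotrypsin-like, caspase-like and trypsin-like activity. Their median log2 fold change was -0.01, with a range of -0.37 to 0.47. Limma called 0 over all genes or over protein-coding genes, with 0 at an unadjusted p under 0.05. PSMB5 measured 223 and 253 FPKM in 3′ WRE-Mut cells and 182 and 161 FPKM in control cells, which do not overlap. Its log2 fold change was 0.47 ± 0.19 (SE), with a limma adjusted p of 0.245 over all genes and 0.199 over protein-coding genes. The other catalytic genes lay near control: PSMB6 had 91.8 and 83.6 FPKM in 3′ WRE-Mut cells and 99.5 and 90.7 FPKM in control cells. PSMB7 had 69.9 and 75.0 FPKM in 3′ WRE-Mut cells and 80.4 and 71.9 FPKM in control cells. Both overlapped between the groups. PSMB2, a noncatalytic beta subunit, was the lowest of the group relative to control, with 26.0 and 28.0 FPKM in 3′ WRE-Mut cells and 38.2 and 32.6 FPKM in control cells and a limma adjusted p of 0.318. PSMB3 had the highest level, with 222 and 204 FPKM in 3′ WRE-Mut cells between the 238 and 173 FPKM of control cells. Across all 14 alpha and beta subunits of the constitutive core, no log2 fold change reached 0.5 in size, and the median was -0.02. After quantile normalization the medians were -0.16 for the alpha subunits and -0.19 for the beta subunits.

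The immunosubunits PSMB8, PSMB9 and PSMB10 replace PSMB5, PSMB6 and PSMB7 in cells exposed to interferon gamma and in immune cells, and they shift cleavage towards peptides that class I molecules present. All 3 were far below their constitutive partners in both groups. PSMB8 measured 0.633 and 0.713 FPKM in 3′ WRE-Mut cells and 0.969 and 0.591 FPKM in control cells, too low to be tested. PSMB9 measured 7.36 and 6.15 FPKM in 3′ WRE-Mut cells and 6.32 and 4.44 FPKM in control cells. PSMB10 measured 18.7 and 22.0 FPKM in 3′ WRE-Mut cells and 18.8 and 10.2 FPKM in control cells. All 3 overlapped between the groups. PSMB8 and PSMB9 lie next to each other on chromosome 6, and the table gives them a shared locus. The thymus form PSMB11 was listed at 0.028 FPKM in 1 of the 3′ WRE-Mut libraries and at 0 in the other and in both control libraries.

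The ratio of an immunosubunit to its partner within a library does not depend on the scaling of that library. The log2 ratio of PSMB8 to PSMB5 was -8.46 and -8.47 in 3′ WRE-Mut cells and -7.55 and -8.09 in control cells. That of PSMB9 to PSMB6 was -3.64 and -3.77 in 3′ WRE-Mut cells and -3.98 and -4.35 in control cells. That of PSMB10 to PSMB7 was -1.90 and -1.77 in 3′ WRE-Mut cells and -2.10 and -2.82 in control cells. The groups were separate for all 3 pairs, with differences of -0.64 for PSMB8, 0.46 for PSMB9 and 0.63 for PSMB10. The first rests on values of PSMB8 whose lower bound, as the authors give it, is 0 in every library. Against control replicate 1 alone the differences were -0.91, 0.27 and 0.26 in the same order, and against control replicate 2 alone they were -0.37, 0.65 and 0.99. Each pair had p = 0.333 in an exact two-sided permutation test, adjusted p = 0.333 over the 3 pairs, the smallest value that 2 libraries against 2 allow.

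The ATPase genes PSMC1 to PSMC6 encode the ring of the 19S base. In all 6 the groups were separate, 4 with both 3′ WRE-Mut libraries above control and 2 below, where 28.7% and 30.6% of all genes tested did so. Limma called 0 over all genes or over protein-coding genes. Before adjustment 1, PSMC3, was lower with p under 0.05, beside 11.2% of all genes tested. PSMC3 was the lowest, with 30.9 and 27.0 FPKM in 3′ WRE-Mut cells and 49.9 and 41.9 FPKM in control cells. Its log2 fold change was -0.65 ± 0.20 (SE), with a limma adjusted p of 0.190 over all genes and 0.107 over protein-coding genes. PSMC1 was the highest relative to control, with 22.5 and 28.5 FPKM in 3′ WRE-Mut cells and 18.2 and 16.6 FPKM in control cells, a log2 fold change of 0.52 ± 0.21 (SE). PSMC4, the most abundant ATPase gene, measured 92.2 and 116 FPKM in 3′ WRE-Mut cells and 85.8 and 68.4 FPKM in control cells. The ATPases thus spread in both directions around a median log2 fold change of 0.23. Their standard deviation was 0.50, compared to 0.26 for the alpha and beta subunits of the core and 0.68 for protein-coding genes.

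The ATPases are known to assemble in pairs. As a description of pairs chosen after their values were seen, the partners were compared within each library. The log2 ratio of PSMC3 to PSMC6 was 0.58 and 0.26 in 3′ WRE-Mut cells and 1.35 and 1.52 in control cells. That of PSMC5 to PSMC4 was -0.69 and -0.83 in 3′ WRE-Mut cells and -0.11 and 0.49 in control cells. In both pairs 1 gene was lower and the other higher in 3′ WRE-Mut cells, which places the ratios -1.01 and -0.95 from control. For PSMC1 to PSMC2 the ratio was 1.08 and 1.62 in 3′ WRE-Mut cells and 0.99 and 0.90 in control cells, a smaller difference of 0.40, which was 0.13 with 3′ WRE-Mut replicate 1 alone and 0.67 with replicate 2 alone.

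The 11 PSM-named non-ATPase subunits of the 19S particle include ubiquitin receptors, scaffolds of the lid and the deubiquitinase PSMD14. Their median log2 fold change was 0.20 (0.02 without 3′ WRE-Mut replicate 2), with a range of -0.58 to 0.68. Limma called 0 over all genes or over protein-coding genes. Before adjustment, 2 higher and 2 lower had p under 0.05, beside 11% and 11.2% of all genes tested. PSMD13, a lid scaffold, measured 125 and 149 FPKM in 3′ WRE-Mut cells and 94.5 and 77.0 FPKM in control cells. Its log2 fold change of 0.68 ± 0.21 (SE) was the highest of all members, with a limma adjusted p of 0.190 over all genes and 0.0973 over protein-coding genes. PSMD1, a large base subunit that anchors other ubiquitin-handling factors, measured 39.5 and 30.0 FPKM in 3′ WRE-Mut cells and 52.1 and 51.7 FPKM in control cells, a log2 fold change of -0.58 ± 0.22 (SE) with a limma adjusted p of 0.225. PSMD2, the other large base subunit, was the most abundant of the group, with 137 and 209 FPKM in 3′ WRE-Mut cells and 123 and 148 FPKM in control cells, and overlapped between the groups. Its locus is shared by 23 rows of the table. Chosen after their values were seen, the ubiquitin receptor PSMD4 had 53.5 and 44.2 FPKM in 3′ WRE-Mut cells and 72.1 and 73.7 FPKM in control cells, and the lid scaffold PSMD11 had 47.9 and 54.9 FPKM in 3′ WRE-Mut cells and 32.1 and 35.6 FPKM in control cells. Over the 17 PSM-named subunits of the 19S particle, 10 lay within 0.5 of 0, with 4 below -0.5 and 3 above 0.5. Of protein-coding genes, 22.3% lay below -0.5 and 19.9% above 0.5.

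PSMD5, PSMD9 and PSMD10 are chaperones that guide assembly of the 19S base and leave the finished particle. All 3 had log2 fold changes between 0.24 and 0.35, and limma called 0, with 0 at an unadjusted p under 0.05. PSMD9 measured 36.2 and 39.2 FPKM in 3′ WRE-Mut cells and 32.1 and 26.8 FPKM in control cells, which did not overlap. PSMD10, also known as gankyrin, measured 20.6 and 26.8 FPKM in 3′ WRE-Mut cells and 20.8 and 18.6 FPKM in control cells and overlapped between the groups.

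**Figure D2:**
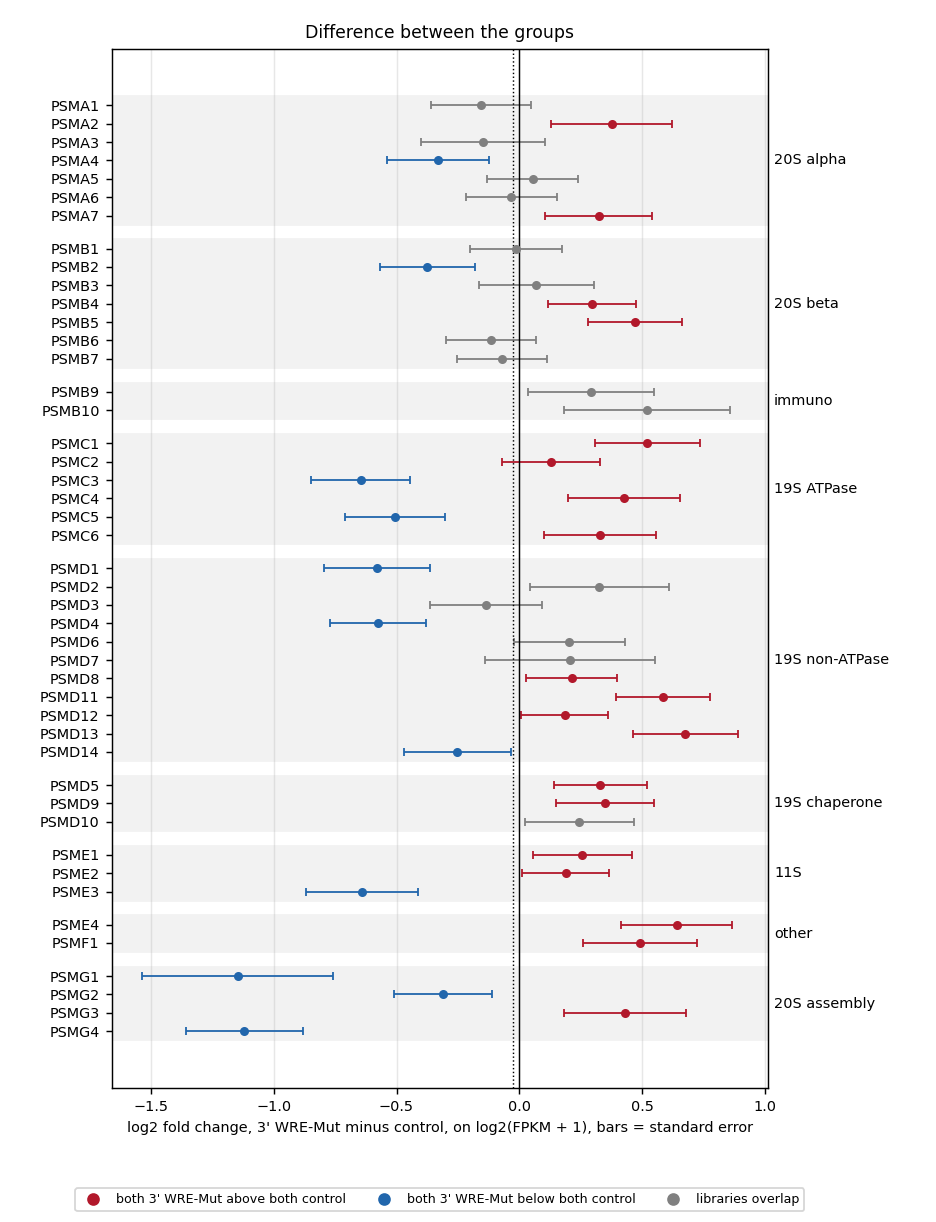
Log2 fold change on log2(FPKM + 1), 3′ WRE-Mut minus control, with its standard error, for the tested proteasome genes by structural group. Red marks genes with both 3′ WRE-Mut libraries above both control libraries, blue those with both below, grey those that overlap, and the dotted line is the median of all genes tested at -0.03. The 14 constitutive core subunits lie within 0.5 of 0, the 19S genes spread in both directions, and PSMG1 and PSMG4 are the only genes plotted that lie below -1 (the read-through row of PSMA2, at -1.07, is not plotted).

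The 11S activators open the gate of the core without ATP. PSME1 and PSME2 form a mixed ring in the cytoplasm that interferon gamma induces, and PSME3 forms a ring of its own in the nucleus. PSME1 measured 69.6 and 82.8 FPKM in 3′ WRE-Mut cells and 67.7 and 59.3 FPKM in control cells. PSME2 measured 86.9 and 81.9 FPKM in 3′ WRE-Mut cells and 76.8 and 71.1 FPKM in control cells. In both the groups were separate by a small gap, with log2 fold changes of 0.26 ± 0.20 and 0.19 ± 0.18 (SE), and their ratio to each other overlapped between the groups. The nuclear PSME3 lay the other way, with 16.2 and 11.8 FPKM in 3′ WRE-Mut cells and 22.2 and 22.1 FPKM in control cells. Its log2 fold change was -0.64 ± 0.23 (SE), with a limma adjusted p of 0.213 over all genes and 0.134 over protein-coding genes.

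Other regulators of the core were above control in both libraries. PSME4, a large nuclear activator that caps the core as a single chain, measured 25.8 and 34.8 FPKM in 3′ WRE-Mut cells and 19.1 and 18.7 FPKM in control cells. Its log2 fold change was 0.64 ± 0.23 (SE), with a limma adjusted p of 0.211 over all genes and 0.126 over protein-coding genes. PSMF1, which inhibits the core in vitro, measured 165 and 170 FPKM in 3′ WRE-Mut cells and 140 and 101 FPKM in control cells, a log2 fold change of 0.49 ± 0.23 (SE) with a limma adjusted p of 0.290. Neither passed the threshold.

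PSMG1 to PSMG4 encode chaperones that help the alpha ring form and do not remain in the mature core. PSMG1 binds PSMG2, and PSMG3 binds PSMG4. PSMG4 (ENSG00000180822.7, chromosome 6, 3231637 to 3303607 on GRCh37, plus strand) was the member that fell in the test over protein-coding genes. It measured 6.07 and 6.44 FPKM in 3′ WRE-Mut cells and 17.3 and 12.6 FPKM in control cells, which do not overlap. Its mean was 6.25 ± 0.26 FPKM in 3′ WRE-Mut cells and 14.9 ± 3.35 FPKM in control cells (SD, n = 2 each), a ratio of 0.419. The log2 fold change was -1.12 ± 0.24 (SE), with a limma adjusted p of 0.161 over all genes and 0.0444 over protein-coding genes. The log2 fold change was -0.90 without control replicate 1 and -1.34 without control replicate 2. Whether the call holds with 1 library in a group cannot be judged, as that library is assumed to vary like the other group. The table places PSMG4 at a locus shared by 4 rows, and the authors' lower bound of its FPKM was 0 in every library.

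PSMG1 (ENSG00000183527.7, chromosome 21, 40546695 to 40555414 on GRCh37, minus strand) has a locus of its own. It measured 12.6 and 5.71 FPKM in 3′ WRE-Mut cells and 19.3 and 21.1 FPKM in control cells. Both 3′ WRE-Mut libraries were below both control libraries, yet they differed from each other by more than 2 times. The log2 fold change was -1.15 ± 0.39 (SE), and the limma adjusted p of 0.203 over all genes and 0.0695 over protein-coding genes missed the threshold. The log2 fold change was -1.66 with 3′ WRE-Mut replicate 2 alone and -0.64 with replicate 1 alone. The partner genes were closer to control. PSMG2 measured 26.9 and 27.3 FPKM in 3′ WRE-Mut cells and 37.4 and 30.6 FPKM in control cells, a log2 fold change of -0.31 ± 0.20 (SE). PSMG3 measured 40.8 and 51.2 FPKM in 3′ WRE-Mut cells and 39.2 and 28.9 FPKM in control cells, a log2 fold change of 0.43 ± 0.25 (SE).

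In both assembly chaperone pairs, the 2 genes differed from control by unequal amounts. This was not so for PSME1 and PSME2, whose log2 ratio differed by 0.07 between the groups. The log2 ratio of PSMG4 to PSMG3 was -2.75 and -2.99 in 3′ WRE-Mut cells and -1.18 and -1.20 in control cells. That of PSMG1 to PSMG2 was -1.09 and -2.26 in 3′ WRE-Mut cells and -0.95 and -0.54 in control cells. The difference between the groups was -1.68 for the first ratio, far beyond the spread within either group, and -0.93 for the other, where the 3′ WRE-Mut libraries lay farther apart than that. With 3′ WRE-Mut replicate 1 alone it was -0.35, and with replicate 2 alone -1.51. These pairs, too, were chosen after their values were seen and were not tested.

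**Figure D3:**
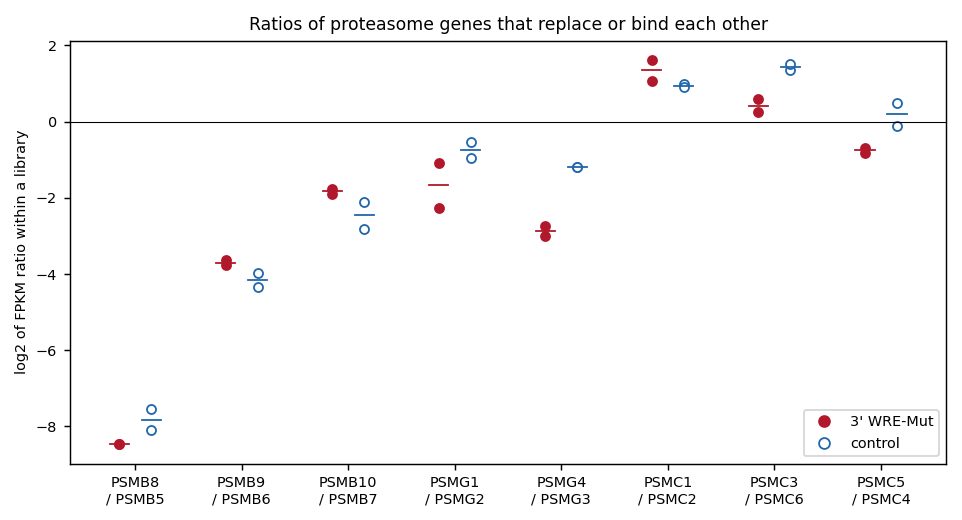
Log2 of the FPKM ratio within a library for the 3 immunosubunits over the subunits they replace, the assembly chaperone pairs and the ATPase pairs. The ratio of PSME1 to PSME2, which overlapped between the groups, is not plotted. Filled red circles are the 2 3′ WRE-Mut libraries, open blue circles the 2 control libraries and dashes the group means; PSMG4 over PSMG3 shows the widest gap, -2.87 in 3′ WRE-Mut cells against -1.19 in control cells.

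The read-through row of PSMA2, which joins PSMA2 to a neighbouring gene, measured 1.69 and 0.312 FPKM in 3′ WRE-Mut cells and 3.69 and 2.30 FPKM in control cells, with a limma adjusted p of 0.270. The read-through row of PSMA1 stayed at or below 0.410 FPKM. Reads of a read-through row and of the gene it runs through are not told apart in these values.

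A list of 31 genes that work with the proteasome outside the PSM names was read from the same fit. Over all genes limma called 0 higher and 0 lower, while 4 higher and 2 lower had p under 0.05 before adjustment (11% and 11.2% of all genes tested). Over protein-coding genes it called 2 higher and 0 lower, beside 4.01% and 4.3% of all protein-coding genes. Both 3′ WRE-Mut libraries lay above both control libraries for 15 and below for 7, beside 28.7% and 30.6% of all genes tested. The median log2 fold change was 0.15. Of the 31, 10 encode subunits without a PSM name or proteins associated with the particle. Their log2 fold changes ranged from -0.92 (UCHL5) to 0.77 (SHFM1). ZFAND2B, a proteasome-associated zinc finger protein of the endoplasmic reticulum, rose in the test over protein-coding genes, with 43.6 and 70.5 FPKM in 3′ WRE-Mut cells, 27.4 and 22.1 FPKM in control cells, and a log2 fold change of 1.14 ± 0.30 (SE). Its limma adjusted p was 0.171 over all genes and 0.0463 over protein-coding genes. The log2 fold change of ZFAND2B was 1.29 when control replicate 1 was left out and 0.99 when control replicate 2 was. Set against both control libraries, 3′ WRE-Mut replicate 1 alone gave 0.80 and replicate 2 alone gave 1.48. As for PSMG4, whether the call holds with a lone library in a group cannot be judged.

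Other partners were on either side. UFD1L, a cofactor of the unfoldase VCP, measured 138 and 178 FPKM in 3′ WRE-Mut cells and 78.4 and 90.9 FPKM in control cells, with a limma adjusted p of 0.0534 over protein-coding genes. UCHL5, a deubiquitinase that docks on the 19S particle, measured 13.5 and 9.84 FPKM in 3′ WRE-Mut cells and 26.2 and 19.8 FPKM in control cells, with a limma adjusted p of 0.0675 over protein-coding genes. The groups were separate in both genes. NFE2L1, the activator of subunit genes, measured 98.7 and 95.4 FPKM in 3′ WRE-Mut cells and 86.7 and 87.7 FPKM in control cells, a log2 fold change of 0.15 ± 0.17 (SE). POMP, the maturation factor of the core, measured 54.8 and 57.2 FPKM in 3′ WRE-Mut cells and overlapped with the 61.6 and 46.1 FPKM of control cells.

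**Figure D4:**
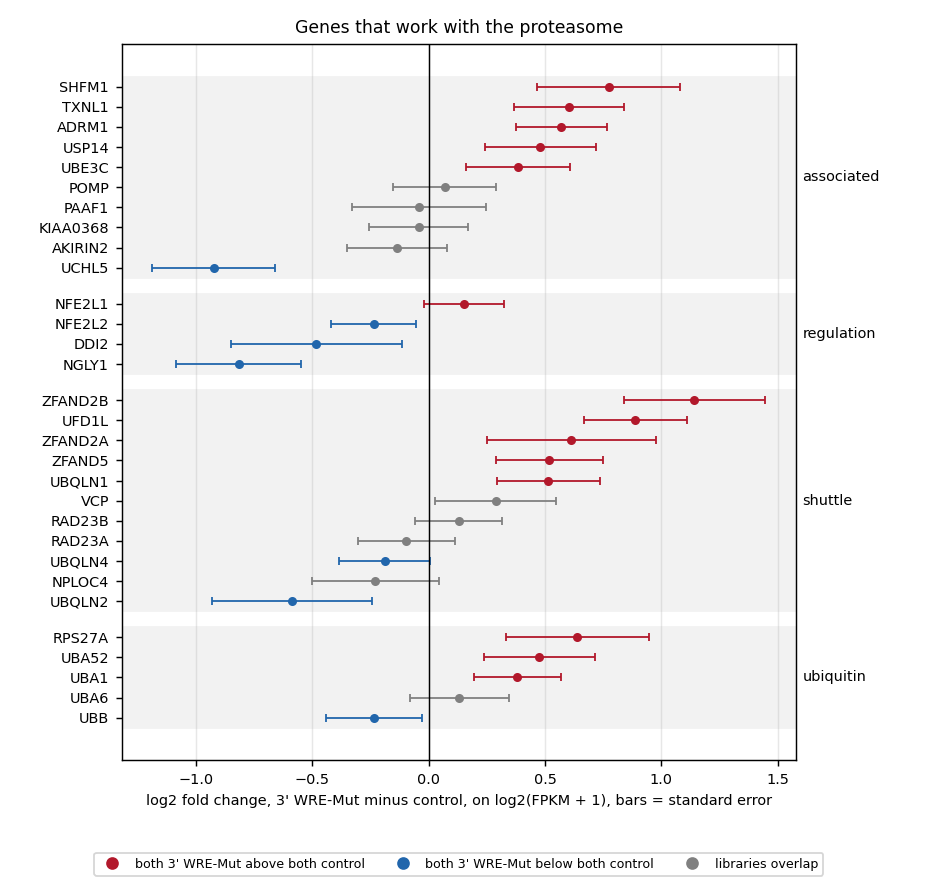
Log2 fold change on log2(FPKM + 1), 3′ WRE-Mut minus control, with its standard error, for genes of the list of 31 that work with the proteasome (1 is not shown), by role and ordered by fold change. Red, blue and grey mark both 3′ WRE-Mut libraries above control, both below, and overlap; of the genes shown, ZFAND2B at 1.14 is the highest and UCHL5 at -0.92 is the lowest.

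For scale, the 8 genes of the CCT chaperonin, another ring complex of unlike subunits, had a median log2 fold change of -0.04. Limma called 0 of them over all genes, and 1 was higher at an unadjusted p under 0.05, beside 11% of all genes tested. That gene, TCP1, was called higher over protein-coding genes, beside 4.01% of all protein-coding genes. Of the class I presentation genes, which use the peptides the proteasome makes, 15 were tested, and 10 had both 3′ WRE-Mut libraries above both control libraries and 3 below, beside 28.7% and 30.6% of all genes tested. Their median log2 fold change was 0.47. Limma called 0 of them over all genes or over protein-coding genes, while 4 higher and 2 lower had p under 0.05 before adjustment, beside 11% and 11.2% of all genes tested. Among those that lay below were the regulators IRF1 and NLRC5, chosen after their values were seen, with log2 fold changes of -0.31 and -0.68.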

How the data were processed

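PolyA RNA of 4 samples was sequenced with single reads. Quality filtering used the FASTX-Toolkit, alignment to hg19 used TopHat2 2.0.9, and the authors made the deposited FPKM values with Cufflinks on the Gencode annotation (2.2.1 in the submitters' processing notes, an earlier version in the study's methods). The authors' lower and upper FPKM bounds entered no test. The second deposited table holds group means, fold changes and p-values of the authors' own comparison and was not used.

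Rows averaging 1 FPKM or more across the 4 libraries were fitted as log2(FPKM + 1) by group with limma 3.58.1 in R 4.3.3, with a variance trend, Benjamini-Hochberg adjustment and a threshold of 0.05. A fold change on this scale understates the change of low genes. No count test was run, since reads could not be recovered: 1.79 to 1.96% of the counts implied by low values came out whole at a tolerance of 0.01. Gene classes and positions came from Gencode v44lift37, in which 55911 rows have an entry. Reads of overlapping genes may be mixed, as no source used here gives their strand. The fit was tested on simulated data.

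The members, lists, tests and promoter motifs were chosen with earlier results of these data known. Named were the tested members of the 11S, other regulator, immunosubunit and assembly chaperone groups, the catalytic subunits, the extremes and the most abundant member of each other group, members past the threshold, and of the partner list NFE2L1, POMP and the 4 with the largest moderated t. Alternatives were other pseudocounts and filters, quantile normalization, median-ratio scaling, protein-coding genes only, a fit without the variance trend, a replicate block and leaving out each library. For the protein-coding fit, a robust variance prior, the block, the scalings and leaving out a library were chosen after seeing the data. The values of 1 partner gene and 1 class I gene are not reported here, though the counts and medians of their lists include them. Plots were made in matplotlib 3.10.9 under Python 3.11.15.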

Additional observations from a re-analysis of the deposited data

How the results depend on the processing

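Over all genes, the count of members called stayed at 0 in each direction under every alternative but the limit to protein-coding genes, which called 1 lower (PSMG4) and, of the partners, 2 higher (ZFAND2B among them). There the adjusted p was 0.0444 for PSMG4, 0.0463 for ZFAND2B and 0.0219 for MYC. Over protein-coding genes, leaving out 1 library at a time gave 0 to 4 members higher, 0 to 7 lower, 0 to 10 partners higher and 0 to 4 lower. The high ends came without 3′ WRE-Mut replicate 1, where 17.2% of protein-coding genes were called higher and 19.8% lower, while 0 members and partners were called without control replicate 1 or control replicate 2. A lone library is assumed to vary like the other group. The replicate block gave 3 members lower (PSMG1 among them, adjusted p 0.000911), 4 partners higher and 2 partners lower over protein-coding genes, of which it called 11% higher and 13.6% lower, and 0 members over all genes. With 2 pairs, the replicate numbers share only a number: the difference between replicates correlated between the groups at 0.11 over protein-coding genes. Quantile normalization called 1 partner lower, beside 5.47% of protein-coding genes that it called lower in the fit limited to them.

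The median log2 fold change of members was 0.088 after quantile normalization and 0.046 to 0.17 with 1 library left out. Quantile normalization gave -0.16 for the alpha subunits, -0.19 for the beta subunits and 0.074 for the 11S genes. With 1 library left out, the beta subunits ranged from -0.15 to 0.092, the ATPases from 0.12 to 0.34, the non-ATPases from 0.020 to 0.31, the 19S chaperones from 0.23 to 0.41 and the core assembly chaperones from -0.77 to -0.48. Directions of values near 0 turned for PSMB3 (-0.074 after quantile normalization, -0.16 to 0.30 with 1 library left out), POMP (-0.030 and -0.14 to 0.27 in the same settings) and PSMB7 (-0.15 to 0.0091 with 1 library left out). The cause was not tested. The unknown depth limits the low members.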
